A study of Mus musculus with 6 samples.

Results

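Cadherins and protocadherins were examined in undifferentiated mouse embryonic stem cells (mESCs) with and without *Alkbh1*, an AlkB homolog dioxygenase. The members were the probe sets whose symbol in the table of all probe sets starts with Cdh and a number, Pcdh and a number, or Pcdha, Pcdhb or Pcdhg. Of 33142 probe sets, 19 met this rule, each for a different gene, among 14411 distinct symbols. They comprised 10 cadherins, 4 non-clustered protocadherins and 5 protocadherins of the alpha, beta and gamma clusters. A probe set is a group of short oligonucleotides on the array whose joint brightness follows the abundance of a transcript.

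The samples were 3 WT and 3 *Alkbh1*-/- arrays of C57BL/6 mESCs, at passage 8 and day 0, without treatment. Both genotypes were derived from littermate embryos of heterozygous crosses and grown with leukemia inhibitory factor on irradiated mouse fibroblasts, which keep mESCs undifferentiated. The labels give the arrays of each genotype a shared code, and whether they came from separate lines or cultures is not given in the sources used here. Genotype and line therefore cannot be told apart. In bulk RNA of this kind, fewer cells of a type and less RNA per cell cannot be told apart either.

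Cadherins are calcium-dependent adhesion molecules. Classical cadherins bind the same cadherin on the neighbouring cell and are tied to actin inside the cell by catenins. *Cdh1*, or E-cadherin, holds the compact colonies of mESCs together, and its exchange for *Cdh2*, or N-cadherin, accompanies gastrulation and neural induction. Protocadherins are the larger branch of the superfamily and lack the catenin-binding tail. The clustered protocadherins lie in tandem arrays of variable exons, each with its own promoter, and give neurons their surface identity.

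The level given for each member was the authors' mean of log2 intensities over all 6 arrays, without an error. Over all probe sets this mean ran from 3.22 to 14.67 with a median of 6.31. Brightness depends on the oligonucleotides of each probe set, so the values mark dim and bright probe sets and do not order the genes by abundance. Of the 19 members, 5 reached this array median and 14 lay below it, and the median percentile of the members was 15.3.

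Among the type I classical cadherins, which carry the adhesive function best studied in epithelia, *Cdh1* (1448261_at) had a mean log2 intensity of 11.67 over all arrays and stood at percentile 96.8 of all probe sets. It was the brightest member probe set. *Cdh2* (1418815_at), the cadherin of neural and mesenchymal cells, had a mean log2 intensity of 7.25, at percentile 62.1. *Cdh3* (1426673_at), or P-cadherin of placenta and epidermis, had a mean log2 intensity of 6.74, at percentile 55.7. The remaining type I probe sets lay below the median of the array. They were those of *Cdh15*, the cadherin of muscle precursors, at 6.01, and of *Cdh4*, the retinal cadherin, at 5.32.

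Both type II cadherins on the table are known from developing tissues. *Cdh11* (1450757_at), a cadherin of mesenchyme and osteoblasts, had a mean log2 intensity of 8.38, at percentile 74.9, and was the second brightest member. *Cdh6* (1450288_at), a cadherin of the embryonic kidney and brain, had a mean log2 intensity of 3.96, at percentile 5.52. The other cadherins were all dim. *Cdh13*, which is anchored to the membrane by a lipid, had a mean log2 intensity of 4.70, *Cdh16* of the kidney had 4.35, and *Cdh23* of the hair cell tip link had 4.04. In all, 4 of the 10 cadherins and 1 of the 9 protocadherins reached the array median.

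The 4 member probe sets of the non-clustered protocadherins lay at the floor of the array, between percentile 0.109 and percentile 8.14. Further probe sets of this class, some of them brighter, are given below. *Pcdh15*, the partner of *Cdh23* in the tip link, had a mean log2 intensity of 4.05. *Pcdh18*, *Pcdh12* of endothelium and *Pcdh7* had mean log2 intensities of 3.84, 3.82 and 3.54. These values are near the lowest value on the table, where an array cannot separate a rare transcript from an absent one.

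Of the clustered protocadherins, the gamma cluster probe set stood apart from the rest. The probe set named *Pcdhgc5* (1423628_s_at) had a mean log2 intensity of 7.57, at percentile 65.9. *Pcdha11* (1425613_at) had a mean log2 intensity of 4.88, and *Pcdhb8*, *Pcdhb5* and *Pcdhb11* had 4.05, 3.90 and 3.72. All of these lay below the median of the array.

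The symbols of the alpha and gamma probe sets name 1 gene, but the genes of these clusters share exons. In the RefSeq genes of assembly GRCm38.p6, 21 of 22 gamma genes and 13 of 14 alpha genes ended within 20 bases of a common end on chromosome 18, and each gene of both clusters overlapped another. Of the 22 beta genes, 0 shared an end and 0 overlapped another. A probe set in the shared 3′ exons reads the sum over a cluster, and the suffix of 1423628_s_at marks probes that match several transcripts. The levels named *Pcdhgc5* and *Pcdha11* are therefore uncertain as to the gene, and were read as levels of the probe sets only. Coverage of the family was thin as well. RefSeq holds 93 genes whose symbol meets the rule, and the 19 members include all 5 type I cadherins but 2 of 13 type II cadherins, 4 of 12 non-clustered protocadherins, 1 alpha, 3 beta and 1 gamma gene.

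**Figure D1:**
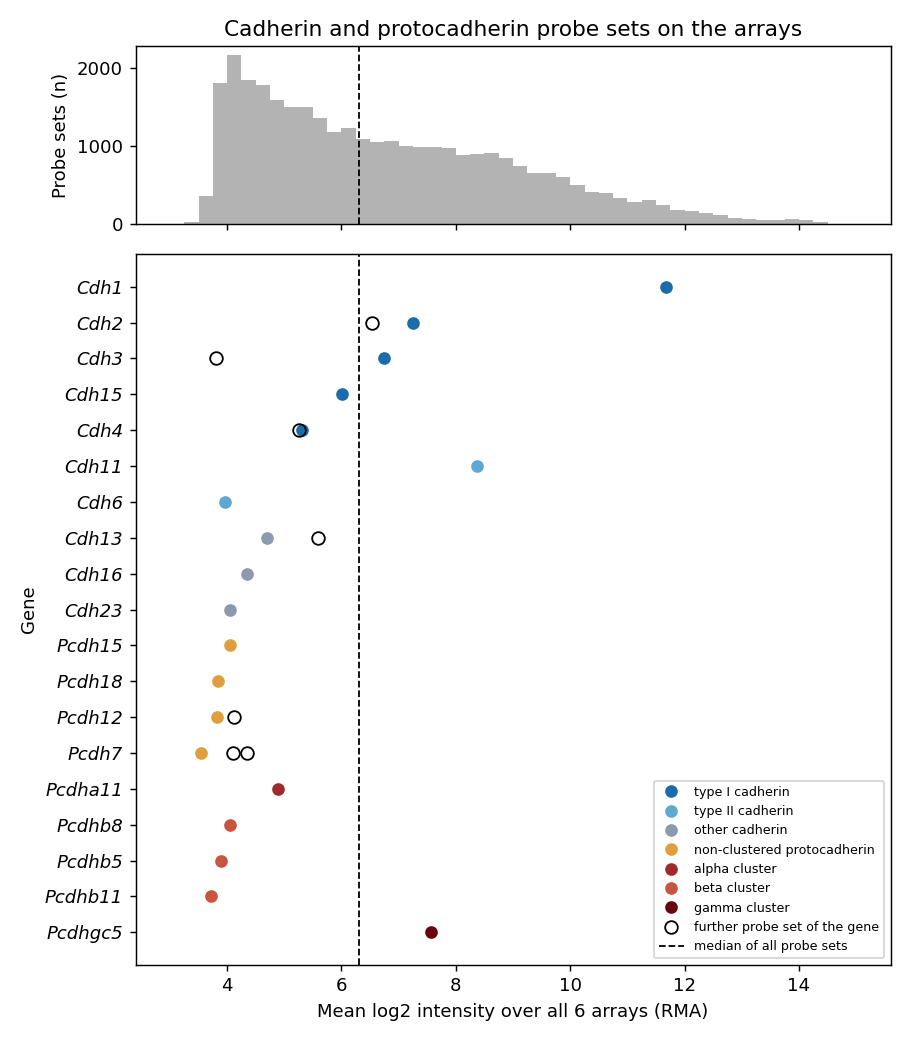
Mean log2 intensity over all 6 arrays for the 19 member probe sets (lower panel, filled circles coloured by class, 1 gene per line) and for all 33142 probe sets (upper panel, histogram of the number of probe sets). Open circles are further probe sets of the same genes and the dashed line is the median of all probe sets, 6.31. *Cdh1*, *Cdh11*, *Pcdhgc5*, *Cdh2* and *Cdh3* lie to its right and the other 14 members to its left.

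Many rows of the table carry no symbol, and some carry another symbol of the gene. Naming rows through their RefSeq gene added 12 probe sets. Of these, 7 belong to 6 member genes. The second probe set of *Cdh2* (1449244_at) had a mean log2 intensity of 6.53, above the median like the first. The second probe set of *Cdh4* (1456397_at) was at 5.26, beside 5.32. For *Cdh3* the pair differed widely, with 3.81 at 1441255_at and 6.74 at the member probe set. The further probe sets of *Cdh13*, *Pcdh12* and *Pcdh7* were brighter than the member probe sets, by 0.89 for *Cdh13*, 0.30 for *Pcdh12*, and 0.81 and 0.55 for *Pcdh7* on the log2 scale, but stayed below the median. The other 5 probe sets belong to 3 genes without a member. *Pcdh19*, an X-linked non-clustered protocadherin of the developing brain, had mean log2 intensities of 7.07, 7.0 and 4.98 at its probe sets. The values of 7.07 and 7.0 lay above the array median, unlike those of the non-clustered members. *Pcdh9* was at 4.35 and *Cdh26* at 4.13.

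The comparison the design implies is *Alkbh1*-/- against WT, and levels of each genotype were taken from the class comparison, which holds the authors' geometric mean of the intensity per genotype for 4326 entries. These entries carry the identifiers of other probe sets: of 4232 entries whose group means matched 1 probe set of the larger table by value, 8 stood beside the same identifier. The match used the mean over all arrays alone. Group means were thereby found for 4232 of 33142 probe sets (12.8%), which were 15.2% of the probe sets at or above the array median and 10.4% of those below it. Of the 19 members, 0 had group means, and of the 12 further probe sets, 0 had them. The nearest entry to any member differed from it by 6.69e-05 in mean log2 intensity, against a tolerance of 1e-06.

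For *Cdh1*, *Cdh2*, *Cdh11*, *Pcdhgc5* and the other members, a level in each genotype is thus not analysed here. The class comparison lists entries with a nominal p under 0.05 after a filter, per the file headers, and the smallest fold between its group means was 1.29. A member outside this list is not shown to be equal in both genotypes. An entry annotated as *Cdh10* is on the list, but the values beside it matched a probe set of *Mep1b*, so they are no values of a cadherin. A former protocadherin is found through its older name: 1418304_at is annotated there as Pcdh21 and is now *Cdhr1*, a cadherin-related gene of photoreceptors that the rule does not take. The values beside that annotation matched a probe set of *Htra1*, and the values of *Cdhr1* were found beside another. Placed by value, *Cdhr1* had an authors' mean intensity of 25.6 in WT and 45.7 in *Alkbh1*-/- mESCs, a ratio of 1.79, at the dim end of the array.

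As a check of the labels, *Alkbh1* (1434660_at) had an authors' mean intensity of 761 in WT and 25.7 in *Alkbh1*-/- mESCs. In this check the *Alkbh1*-/- mean was 29.6-fold lower, against a dim value. A second probe set of *Alkbh1* (1438681_at) had 120.0 in WT and 34.6 in *Alkbh1*-/- mESCs, 3.47-fold lower. The genotypes also differed at the sex chromosomes. Of 10 Y-linked genes on the table, 4 had group means, and all 4 were lower in *Alkbh1*-/- mESCs. *Eif2s3y*, a translation factor subunit, had authors' mean intensities of 751 in WT and 14.9 in *Alkbh1*-/- mESCs, and the helicase gene *Ddx3y* had 412 and 14.1. Of 524 X-linked genes on the table, 304 had group means, and 281 of these were higher and 23 lower in *Alkbh1*-/- mESCs. Over all RefSeq genes on the table, the X-linked genes included, 18.2% had group means, and 50.1% of those were higher. The counts at the sex chromosomes were made after the values were seen. For every gene compared here, the loss of *Alkbh1* and this difference at the sex chromosomes cannot be told apart.

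Proteins that work with the cadherins were taken from lists of partners, relatives and regulators. Of 51 such genes on the table, 13 had group means, against 18.2% of all 15357 RefSeq genes on the table. The single lists hold 2 to 14 genes, too few to read the count of each against this share. Of the 13, 5 had the higher mean in *Alkbh1*-/- mESCs and 8 the lower, and over all 2790 genes with group means these shares were 50.1% and 49.9%. The 2790 genes include the 304 X-linked genes, of which 281 were higher and 23 lower. Shares without the X-linked genes were not computed. Among the 13 genes, a ratio past 1.5-fold was found for 2 higher and 6 lower genes, against 29.8% higher and 29.9% lower of all genes with group means. Of the 6 lower genes, *Celsr3* and *Nectin2* lay at the threshold with a ratio of 1.5 at the probe set used. *Afdn* had 1.52. These ratios have no error and no test, because they come from group means of 3 arrays each.

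Most of the catenins had no group means. *Ctnnb1* and *Ctnna1*, encoding β-catenin and α-catenin, had mean log2 intensities of 12.88 and 12.55 over all arrays, and *Ctnnd1* and *Jup*, encoding p120-catenin and plakoglobin, had 8.83 and 7.29. Of the 9 catenins and partners on the table, 3 had group means. *Afdn*, the actin linker of nectins, had authors' mean intensities of 1563 in WT and 1026 in *Alkbh1*-/- mESCs. *Vcl*, or vinculin, had 1434 and 1064. *Ctnnd2*, or δ-catenin, had 23.2 and 33.5 at a dim probe set (percentile 25.1). *Nectin2*, an adhesion molecule of the same junctions and 1 of 5 nectins on the table, had 362 in WT and 241 in *Alkbh1*-/- mESCs at its brighter probe set. Its other probe set (1417703_at) had 382 in WT and 197 in *Alkbh1*-/- mESCs, 1.94-fold lower.

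Desmosomes are held by a separate set of cadherins, and 2 of the 7 desmosomal genes on the table had group means. *Dsg2*, the desmoglein of simple epithelia, was higher in *Alkbh1*-/- mESCs at all 6 of its probe sets. At the brightest (1439476_at) the authors' mean intensity was 435 in WT and 1369 in *Alkbh1*-/- mESCs, a ratio of 3.15, and over its probe sets the ratio ran from 1.63 to 3.21. *Pkp2*, the plakophilin that links desmosomal cadherins to keratins, went the other way. Its brightest probe set had 822 in WT and 345 in *Alkbh1*-/- mESCs, 2.38-fold lower, and its other probe sets with group means were lower as well.

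Of 14 further genes of the cadherin superfamily on the table, 3 had group means. Besides *Cdhr1*, these were *Celsr3*, an adhesion receptor of axon tracts, with 106 in WT and 70.7 in *Alkbh1*-/- mESCs, and *Fat1*, a giant protocadherin-like receptor, with 3280.0 and 2258. Of 7 repressors of *Cdh1*, 2 had group means. *Snai3* had 211 in WT and 107 in *Alkbh1*-/- mESCs, and *Zeb1* had 226 and 315. *Snai1*, the best known of these repressors, had a mean log2 intensity of 4.57 over all arrays and no group means. *Adam10*, the protease that sheds E-cadherin and N-cadherin, had 372 in WT and 532 in *Alkbh1*-/- mESCs, and it was 1 of 2 shedding enzymes on the table.

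Of 7 genes that act on the protocadherin clusters, including *Ctcf*, *Rad21* and *Smchd1*, 1 had group means, against 18.2% of all RefSeq genes. This gene, *Dnmt3b*, encodes a de novo DNA methyltransferase that methylates protocadherin promoters in the embryo. The authors' mean intensity of *Dnmt3b* at its brightest probe set (1449052_a_at) was 5077 in WT and 1825 in *Alkbh1*-/- mESCs, 2.78-fold lower. Its other probe sets were 3.31-fold and 2.77-fold lower. No probe set of the alpha, beta or gamma cluster, the brighter one named *Pcdhgc5* included, gave a level in each genotype to set beside *Dnmt3b*.

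**Figure D2:**
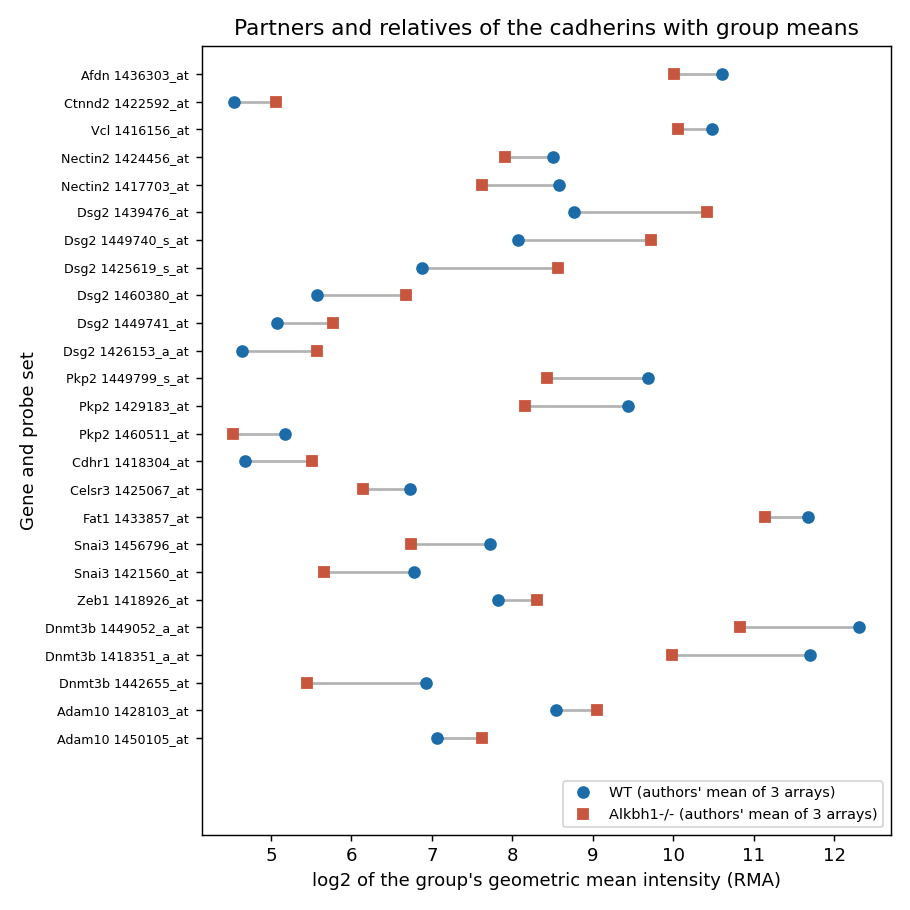
Group means of the 13 partner, relative and regulator genes at each probe set that has them, on the log2 scale of the authors' geometric mean intensity (circles WT, squares *Alkbh1*-/-, each pooling 3 arrays, with no error given). *Dsg2* lies to the right in *Alkbh1*-/- mESCs at 6 of 6 probe sets, and *Adam10*, *Cdhr1*, *Ctnnd2* and *Zeb1* also lie to the right. *Pkp2*, *Nectin2*, *Snai3*, *Dnmt3b*, *Afdn*, *Celsr3*, *Fat1* and *Vcl* lie to the left.

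The labelled cell type was checked with marker lists. All 10 mESC markers were on the table with mean log2 intensities between 10.05 and 14.49. Of 20 fibroblast markers, 18 reached the array median, each gene at its brightest probe set. So did 4 of 5 trophectoderm, 4 of 5 primed epiblast, 4 of 7 neuroectodermal and 0 of 7 primitive endoderm markers. Reaching the median is thus not particular to fibroblast markers, and the share over all genes was not computed. Fibroblasts are known to express *Cdh11* and *Cdh2*, and how much of the signal of these members came from feeder cells was not measured. Of the 20 fibroblast markers, 9 had group means, against 18.2% of all RefSeq genes on the table. Of these 9, 0 were higher and 9 lower in *Alkbh1*-/- mESCs, with a median log2 difference of -0.88. That median covers only entries listed for a genotype difference. The other markers, *Fn1*, *Thbs1* and *Vim* among them, had no group means at any probe set. For *Col1a2* and *Col5a1* the values came from dimmer probe sets, since the brightest, at 11.82 and 9.31, had none. Among all genes with group means 49.9% were lower, a share that includes the mostly higher X-linked genes. The part of the fibroblast markers in the levels of *Cdh11* and *Cdh2*, and in the lower means of *Afdn*, *Nectin2*, *Vcl*, *Fat1* and the other partner genes, was not tested. Of 10 mESC markers, 5 had group means, and 4 of these were higher while *Utf1* was lower. Group means were found for 3 of 7 neuroectodermal, 3 of 5 primed epiblast, 2 of 7 primitive endoderm and 2 of 5 trophectoderm markers. Of these, 1, 0, 1 and 0 were higher, against 50.1% of all genes with group means. The counts are too small to read against the shares over all genes. *Pou5f1*, *Sox2*, *Pax6* and *Cdx2* were among the markers without group means. The higher neuroectodermal marker was *Sox1* at a dim probe set (percentile 5.21), while its brighter probe set had no group means. Of the primed epiblast markers, *Fgf5* likewise rested on a dim probe set (percentile 1.98), and another was *Dnmt3b*, already given above.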

How the data were processed

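Affymetrix mouse genome arrays were hybridised with total RNA of 3 WT and 3 *Alkbh1*-/- mESC samples. The authors normalized the 6 arrays jointly by robust multi-array analysis (RMA). They deposited a table of 33142 probe sets, selected by a rule not given in the sources used here, with the mean log2 value over all arrays. They also deposited a company's class comparison of 4326 entries, which holds for each genotype a geometric mean of intensity on the linear scale; its WT class carries a wrong name, which the description of the tables corrects. Both tables also hold the authors' own comparison (differences or folds, test statistics, p-values and adjusted p-values), which was not used here. Single arrays were not analysed here, so no test was run, and precision is limited by the number of arrays.

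The entries of the class comparison were matched to probe sets by value: the average of both log2 group means had to equal the mean of a single probe set within 1e-06. This placed 4232 entries, left 65 without a probe set and 29 with several. The match was tested on simulated data. Gene names beyond the table's symbols came from RefSeq (GRCm38.p6) through gene identifiers, accessions and symbols, for 28205 probe sets (85.1%). Where a gene has several probe sets, the brightest stands for it, or for group means the brightest that has them. A ratio past 1.5-fold was counted. All members, and all listed partner genes with group means, are named; marker lists are given as counts. Members and lists were chosen with earlier results of these data known. Python 3.11.15, pandas 2.3.3, NumPy 2.4.6 and matplotlib 3.10.9 were used.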

Additional observations from a re-analysis of the deposited data

How the results depend on the processing

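The count of members with a ratio past 1.5-fold between genotypes was 0 and stayed 0 under all 10 alternatives, since 0 members had group means. These were another fold or none, every probe set, the mean over the probe sets of a gene, the brighter probe sets alone, no shared probe sets, a smaller or larger tolerance of the match, and RefSeq names by identifier or, chosen after seeing the data, by any name. This says nothing about stability. The count of members that reached the array median was 5 of 19, and it was 5 of 20 under RefSeq names by identifier, 6 of 22 under RefSeq names of any kind and 4 of 18 without shared probe sets. Among 13 partner genes, 0 of 37 values changed direction, and 3 moved by over 0.1 on the log2 scale, all with the mean over probe sets: *Dsg2* to 1.29, *Pkp2* to -1.06 and *Nectin2* to -0.77. A smaller tolerance gave no value for 2 of the 13 partner genes, *Zeb1* and *Adam10*. No paired analysis was possible because the columns pool the arrays of a genotype and carry no replicate numbers, and no array could be left out for the same reason. No log2 difference of a named member could be recomputed.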
